A study of Anguilla anguilla with 6 samples.

Results

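Calpains are cysteine proteases of the cytoplasm that are switched on by calcium, and calpastatin is the protein that holds the conventional ones in check. All gene models of the European eel (Anguilla anguilla) whose deposited description contains the word calpain or calpastatin were collected, which gave 43 of the 45974 models in the authors' table. The search used only the wording of the description, but the family itself was chosen by measured values, namely the known difference of calpain-2 models between the groups compared here. The differences between groups are therefore given as descriptions, and the authors' p-values beside them are no independent evidence.

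The libraries came from ovaries of 6 farmed eels that had all been injected with gonadotropins, hormones that act on the gonads, once a week for 4 weeks. The labels class 4 eels as responders and 2 as non-responders, without defining a response, and name neither age, strain nor untreated animals. Pieces from the front, middle and rear of each ovary were pooled into 1 mRNA library per eel. The comparison asks which ovarian transcripts separate eels that responded to the hormones from eels that did not. The authors' deposited table gives for each model the mean of counts divided by size factors, called scaled counts below, in each group and over all 6 libraries. It also gives the ratio of the group means, responders over non-responders, a p and an adjusted p. Values per library were not analysed here, so no spread between eels stands beside the means, and whether single eels overlap between the groups is not shown. In whole ovary pieces, fewer cells of a type and less RNA per cell cannot be told apart.

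A conventional calpain, such as calpain-1 or calpain-2, pairs a large catalytic subunit with a small regulatory subunit that the catalytic forms share. Calcium binding opens the active site, and the enzyme then cuts its substrates at a limited number of places, among them proteins of the membrane skeleton and of cell adhesions, so that cell shape, spreading and migration can change. Other members are more restricted: in mammals calpain-3 is known from skeletal muscle and calpain-8 and calpain-9 from the digestive tract. Calpain-5, calpain-7, calpain-10 and calpain-15 lack the calmodulin-like domain of the conventional forms and do not bind the small subunit. In eggs of mammals, calpains have been linked to the calcium signals that follow fertilisation.

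The 43 models fell into 13 kinds by their best protein match. Calpain-2 had 12 models and calpain-1 had 10. Calpain-5 and calpain-15 had 5 each, calpain-3 and calpain-9 had 2 each, and 1 model each matched calpain-7, calpain-8, calpain-10, calpain-14, the worm calpain CLP-1, the small subunit 1 and calpastatin. Several models can be pieces of 1 transcript or products of duplicate genes, and the table does not separate these cases. The length of a model was taken as that of its longest transcript. The models ranged from 163 to 7004 bases in length, and 17 were shorter than 500 bases. Their similarity to the best protein match, a fraction in the authors' deposited table, ranged from 0.43 to 0.91. Some models had consecutive identifiers, namely g11638 to g11641, g17127 with g17128, and g17984 to g17986. The first and the last of these runs each hold calpain-1 and calpain-2 models. In the RefSeq annotation of the species (assembly fAngAng1.pri), which shares no identifiers with the table, 13 genes carry a calpain or calpastatin symbol, and capn1a, capn2a and capn8 are direct neighbours.

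The family also shared annotation terms. These were deposited beside the descriptions, so they are no independent evidence for the names. Calcium-dependent cysteine-type endopeptidase activity was annotated to 32 of the 43 models, and only 2 models outside the family carried that term, grancalcin (g12947), a calcium-binding relative of the small subunit, and VPS4B (g7297), an ATPase of membrane sorting. The other terms were general ones. Proteolysis was annotated to 36 models of the family and to 813 others, and calcium ion binding to 27 and to 2005 others.

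Of the 43 models, 20 averaged 5 scaled counts or more across the libraries. Of the others, 5 were listed at 0 throughout and 18 had means between 0.14 and 4.99, all with an adjusted p of 1 per the authors' deposited table. Among the 43, 9 were listed at 0 in non-responders only, all with means under 5, and none was listed at 0 in responders only. The same count was not made over all models, so this is not shown to be particular to the family. The non-responder mean also rests on fewer libraries, so a scarce model is more easily listed at 0 there. As a share of all scaled counts, the family made up 0.0328% among non-responders and 0.0343% among responders. The small subunit alone made up 0.0190% and 0.0191%.

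Calpain-2 models carried the calls. The authors' deposited table gives an adjusted p under 0.05 to 3 models of the family, all of them calpain-2 and all higher in responders. That is 7.89% of the 38 family models with a p. Of all 37072 models with a p, 0.183% were called in either direction, and 0.121% were called higher in responders. No model of the family was called lower. Since the 3 models share a name and may be pieces of 1 transcript, their number does not count genes.

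**Figure D1:**
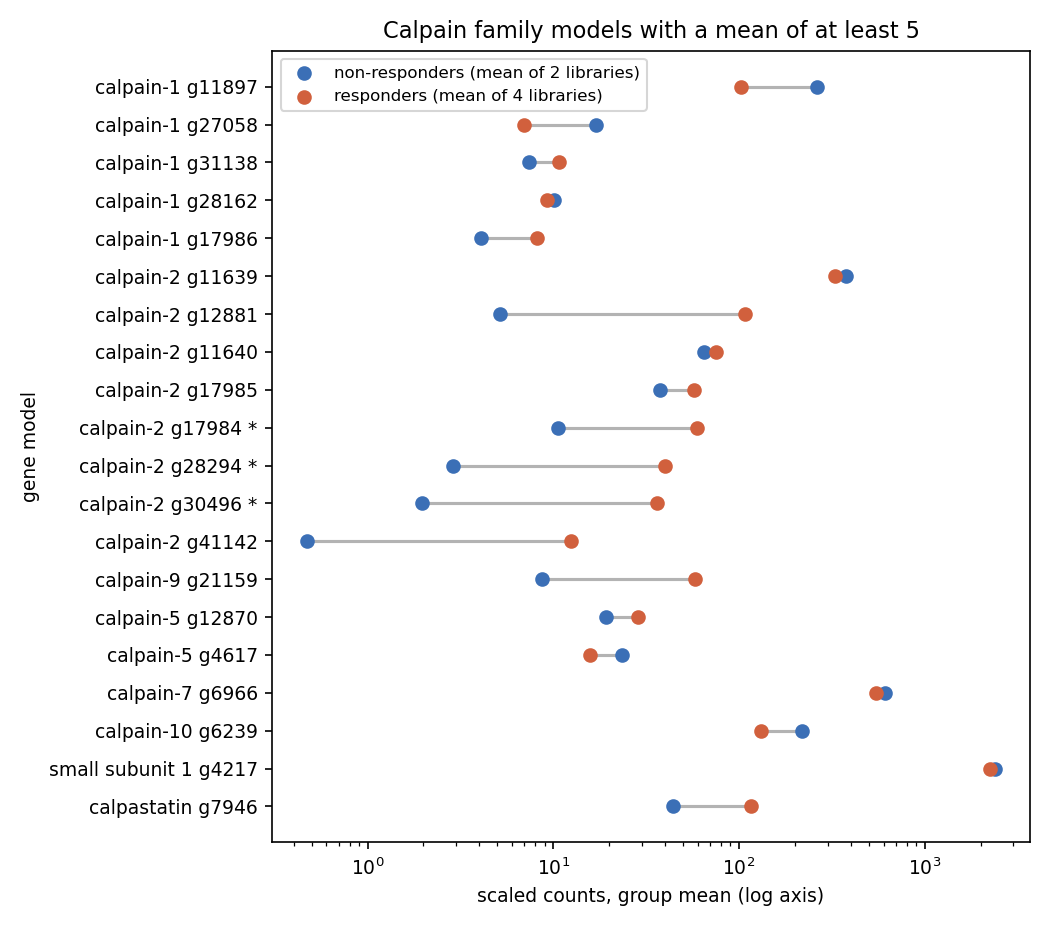
Mean scaled counts (log axis) of the 20 calpain family models averaging at least 5, with non-responders in blue and responders in orange, joined by a line for each model; an asterisk marks the 3 models with an adjusted p under 0.05 in the authors' table. The 4 widest gaps belong to calpain-2 models and the fifth to the calpain-9 model g21159, ahead of calpain-2 g17984; the small subunit lies far to the right with both groups close together, and no error is drawn because values per library were not used.

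The model g30496, which is 402 bases long and matches the catalytic subunit of calpain-2, had 1.96 scaled counts among non-responders and 36.3 among responders, per the authors' deposited table, an 18.5-fold higher mean (log2 4.21, DESeq adjusted p = 2.2e-04). The model g28294, of 359 bases, had 2.90 and 40.0 scaled counts there, a 13.8-fold difference (log2 3.79, DESeq adjusted p = 0.0277 per the authors' deposited table). The third called model, g17984, is longer at 1363 bases and had 10.6 and 59.7 scaled counts, a 5.61-fold difference (log2 2.49, DESeq adjusted p = 0.0060 per the authors' deposited table). All 3 were scarce in the non-responder mean. Their means over all 6 libraries lay below the median level of the models with a mean of 5 or more.

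Another pair of calpain-2 models showed ratios as wide without passing the threshold. For g12881, of 737 bases, the authors' deposited table lists 5.16 scaled counts among non-responders and 107 in responders (log2 4.38, DESeq adjusted p = 0.124). The shortest model, g41142 at 163 bases, had the largest ratio among the 20 models averaging 5 or more, with 0.47 and 12.4 scaled counts, and an unadjusted DESeq p = 0.56 per the authors' deposited table. A wide ratio of group means thus stood beside both small and large p-values. The spread between eels behind those p-values was not analysed here.

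The longer calpain-2 models had similar means in both groups. The most abundant, g11639 of 2229 bases, had 377 scaled counts among non-responders and 330 in responders (log2 -0.20) per the authors' deposited table. The longest, g11640 of 2750 bases, had 64.7 and 75.5 (log2 0.22), and g17985 of 2100 bases had 37.4 and 57.2 (log2 0.61) per the authors' deposited table. Neither they nor g11639 passed, and g17985 carries the identifier next to the called g17984. The remaining 4 calpain-2 models had means of 0.61 scaled counts or less.

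Among models averaging at least 5, those of calpain-2 thus spanned log2 ratios from -0.20 to 4.72, against -1.36 to 1.01 for calpain-1. The 8 calpain-2 models split into 5 with a ratio above 5-fold, between 5.61 and 26.4, and 3 with ratios between 0.87 and 1.53. This split was made after the values were seen and is not tested. The 5 models together had 21.1 scaled counts in the non-responder means and 256 in the responder means. The other 3 had 479 and 462. The 5 accounted for 4.22% of all calpain-2 scaled counts among non-responders and 35.6% in responders.

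Dividing by length leaves each ratio as it is but lets levels be compared between models. On the scale of scaled counts per kilobase of model, the 5 models lay between 2.89 and 8.08 among non-responders and between 43.8 and 146 in responders. The other 3 lay between 17.8 and 169 among non-responders and between 27.3 and 148 in responders. The 5 models were thus below the other 3 per length in non-responders, and above 2 of these 3 in responders. This order follows in part from how they were picked and is only a description. The 5 were chosen by their ratio, and g28294, g30496 and g41142 reached a mean of 5 only through the responders. They are also shorter, from 163 to 1363 bases against 2100 to 2750, and their lengths add up to 3024 bases. Their similarity to the best match was 0.71 to 0.85, against 0.69 to 0.72 for the longer ones. Whether the short models belong to 1 transcript was not tested.

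**Figure D2:**
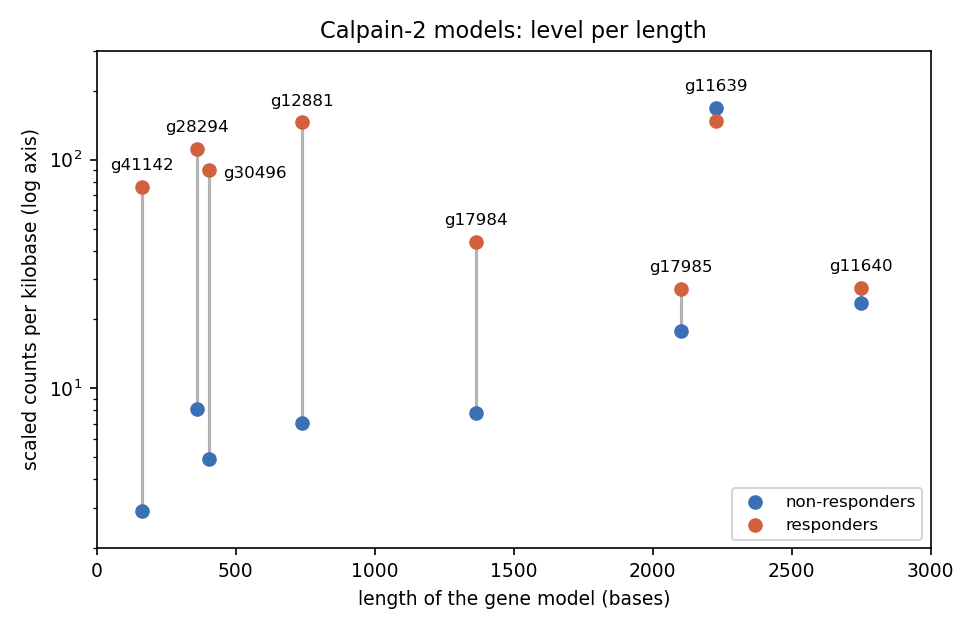
Level per length (scaled counts per kilobase, log axis) of the 8 calpain-2 models averaging at least 5 against the length of the model in bases; blue points are non-responder means, orange points responder means, and lines join the values of a model. The 5 models of 1363 bases or less lie under 8.1 among non-responders and at 43.8 or more in responders, whereas the 3 models of 2100 bases or more differ by at most 1.53-fold. These 5 are the models picked for a ratio above 5-fold, so the gap between their groups follows in part from that choice.

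No calpain-1 model was called. The most abundant of them, g11897, whose similarity to chicken calpain-1 was only 0.49, had 264 scaled counts among non-responders and 103 in responders (log2 -1.36, DESeq adjusted p = 0.37 per the authors' deposited table). The short model g27058 had 17.0 and 6.96 scaled counts (log2 -1.29) and an adjusted p of 1 per the authors' deposited table. The other 3 calpain-1 models averaging at least 5 had log2 ratios from -0.11 to 1.01, and none was called. The remaining 5 had means under 5 or were listed at 0. Per length, g11897 stood at 112 scaled counts per kilobase among non-responders and 43.4 in responders, so it was second to the calpain-2 model g11639 among the conventional catalytic models in the non-responder means.

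The regulatory small subunit was by far the most abundant member, with close means in both groups. Small subunit 1 (cpns1, g4217), the partner of both conventional catalytic subunits, had 2399 scaled counts among non-responders and 2234 in responders (log2 -0.10, unadjusted DESeq p = 0.73 in the authors' deposited table). Its mean lay above 95.9% of the models averaging at least 5. Per length it reached 1290 scaled counts per kilobase among non-responders and 1201 in responders, against at most 169 for any catalytic model of calpain-1 or calpain-2 in either group.

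Calpastatin, the inhibitor, was higher in the responder mean without passing the threshold. Its model (ical, g7946) had 44.2 scaled counts among non-responders and 117 in responders, a 2.63-fold difference (log2 1.40, unadjusted DESeq p = 0.0015, adjusted p = 0.29 per the authors' deposited table). Per length its level was 11.6 scaled counts per kilobase among non-responders and 30.7 in responders. In non-responders this was above the 5 short calpain-2 models, and in responders it was below all of them. Those 5 were picked by their ratio, so this order is only a description.

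Of the calpains without the calmodulin-like domain, calpain-7 and calpain-10 were the abundant ones. Calpain-7 (can7, g6966), which in mammals has been linked to the sorting of membrane cargo, had 607 scaled counts among non-responders and 549 in responders (log2 -0.15, unadjusted DESeq p = 0.71 in the authors' deposited table). Calpain-10 (can10, g6239), known in humans as a gene studied in type II diabetes, had 219 and 131 scaled counts (log2 -0.74, unadjusted DESeq p = 0.036, adjusted p of 1 per the authors' deposited table). Per length calpain-7, at 170 and 154 scaled counts per kilobase, was close to the calpain-2 model g11639, at 169 and 148. Of the 5 calpain-5 models only g12870 (19.3 and 28.7 scaled counts) and g4617 (23.4 and 15.8) reached a mean of 5 in the authors' deposited table, and neither passed. All 5 calpain-15 models stayed at means of 0.51 or less.

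The muscle and gut forms were scarce, with 1 exception. Calpain-3 had 1 model at 0 and 1 listed at 0 among non-responders and 0.77 among responders, per the authors' deposited table. Calpain-8 averaged 1.08 scaled counts and the calpain-14 model was listed at 0 in the authors' deposited table. A calpain-9 model (can9, g21159) had 8.69 scaled counts among non-responders and 58.3 in responders, a 6.71-fold difference (log2 2.75), with an unadjusted DESeq p = 0.33 in the authors' deposited table. Its similarity to mouse calpain-9, 0.43, was the lowest of all 43 models, whereas the better match g4714 (0.69) is listed with 1.56 and 1.99 in the authors' deposited table.

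Of the 20 models averaging 5 or more, 12 had a higher mean in responders and 8 a lower one. This tally and the median below support nothing, since 4 models (calpain-2 g28294, g30496 and g41142 and calpain-1 g17986) reached that mean only through the responders. The median of their log2 ratios was 0.56, with a range from -1.36 to 4.72. Over all 23266 models with such a mean the median log2 was 0.01, with 11765 models above and 11483 below. Without calpain-2 the 12 remaining family models had a median log2 of -0.11, with 5 above and 7 below. With the calpain-2 models counted once, by their sums, the family median was -0.10, and it was also -0.10 over the 9 models averaging 50 or more. The positive family median thus rests on the calpain-2 models. An unadjusted DESeq p under 0.05 was given to 7 of the 20 in the authors' deposited table, 5 higher (4 calpain-2 models and calpastatin) and 2 lower (calpain-1 g11897 and calpain-10). Over all 23266 models the share was 3.21% higher and 2.41% lower. These counts support nothing either. The family was chosen for the calpain-2 difference, and g28294 and g30496 reached a mean of 5 only through the responders. The 4 calpain-2 models may also be pieces of the same transcript.

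**Figure D3:**
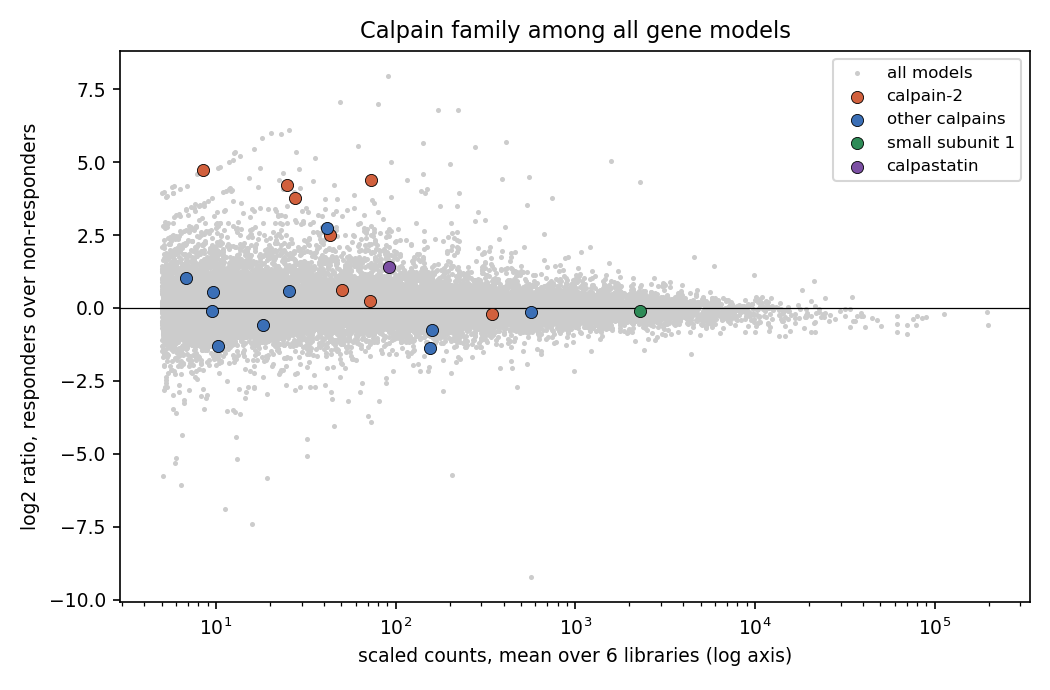
Log2 ratio of responder to non-responder means against the mean scaled count over 6 libraries (log axis) for all models averaging at least 5 (grey) and for the calpain family (calpain-2 orange, other calpains blue, small subunit green, calpastatin purple). The log2 ratios of all models range from -9.24 to 7.96, with quartiles of -0.28 and 0.35. Of the calpain-2 points 5 lie between 2.49 and 4.72, and the small subunit lies at -0.10 on the far right.

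Re-adjusting the authors' p over the models averaging at least 20 kept 14 family models, with the same 3 calpain-2 models called. Of all models in that range 0.371% were called higher. Since 6 of the 14, the called ones included, pass this filter only through the responder mean, their staying called is a description and no check. The adjusted p of g12881 then became 0.062, that of calpastatin 0.15 and that of g11897 0.18.

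Lists of genes around the calpains held no called model. Of all models averaging at least 5, 0.292% were called, and a count of 0 in lists of this size is near that share. Of the proteins that handle or sense calcium upstream of calpains, such as the inositol trisphosphate and ryanodine receptors, the calcium pumps, calmodulin and calcineurin, 135 models were matched and 55 had a mean of at least 5. DESeq called 0 of these 55 in the authors' deposited table, with 0 higher and 2 lower at an unadjusted p under 0.05, against 3.21% and 2.41% of all models. Their median log2 was -0.05, with 26 above and 29 below, and it became 0.06 once the groups were rescaled to equal sums. The endoplasmic reticulum calcium pump SERCA2 (at2a2, g12340) had 225 and 134 scaled counts (log2 -0.74) and calreticulin (g20926), which holds calcium in that store, had 106 and 160 (log2 0.59) in the authors' deposited table.

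Known targets of calpain cleavage in the membrane skeleton and in adhesions, such as spectrins, talins, filamins, vimentin and integrin beta chains, comprised 182 models, 86 of them averaging at least 5. DESeq called 0 of them here too, with 1 higher and 3 lower at an unadjusted p under 0.05 in the authors' deposited table, against the same 3.21% and 2.41% of all models. Their median log2 was 0.01, with 43 above and 43 below. A model of talin-2 (tln2, g11668), which ties integrins to actin, had 63.4 scaled counts among non-responders and 153 in responders (log2 1.27, DESeq adjusted p = 0.29 per the authors' deposited table). The more abundant talin-2 model g984 had close means of 414 and 449 scaled counts (log2 0.12). A short vimentin model (vime, g33817) had 82.2 and 39.7 (log2 -1.05, DESeq adjusted p = 0.82 per the authors' deposited table).

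The relatives of the small subunit with the same kind of calcium-binding fold, sorcin, grancalcin, peflin and ALG-2, had 7 models averaging at least 5, and 0 were called by DESeq or had an unadjusted p under 0.05 in the authors' deposited table. Their median log2 was 0.19. Of all models averaging at least 5, 3.21% were higher and 2.41% lower at that unadjusted p. A count of 0 among the 7, or among the 9 cystatin models below, is near these shares. An ALG-2 model (pdcd6, g4386) had 58.2 and 118 scaled counts (log2 1.03) and a peflin model (pef1, g4802) 214 and 276 (log2 0.37) in the authors' deposited table. The far more abundant ALG-2 model g1444 had 3247 scaled counts among non-responders and 3709 in responders (log2 0.19). Cystatins, inhibitors of papain-like cysteine proteases, had 9 models, 8 higher and 1 lower in the responder mean (median log2 0.34), and again 0 were called by DESeq or had an unadjusted p under 0.05 in the authors' deposited table. A cystatin-F model (cytf, g10786) had 25.6 and 97.5 scaled counts (log2 1.93) and a cystatin-B model (cytb, g5944) 389 and 281 (log2 -0.47), as the authors' deposited table lists them. The more abundant model of each differed from these. Cystatin-F g16847 had 467 scaled counts among non-responders and 527 in responders (log2 0.17), and cystatin-B g2409 had 1944 and 2527 (log2 0.38).

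Markers of the cells that an ovary piece can hold were read beside the family. Oocyte markers were abundant, with 621518 scaled counts in the summed non-responder means and 408341 in the summed responder means over 15 models, 14 of them lower in responders (median log2 -0.39, or -0.28 once the groups were rescaled to equal sums). Theca and stroma markers summed to 1698 and 3022 scaled counts over 8 models, 7 of them higher (median log2 0.97). Granulosa markers summed to 204 and 245 (5 models, median log2 0.15), smooth muscle to 483 and 470 (5 models, 0.02), leukocytes to 69.0 and 92.6 (5 models, 0.70), erythrocytes to 1645 and 1811 (7 models, -0.04), endothelium to 158 and 83.8 (4 models, -0.82) and adipocytes to 18290 and 17823 (3 models, 0.92). No marker model was called per the authors' deposited table. The share called was 0.292% over all models averaging at least 5, and no call in lists of this size is near it. Models of 1 gene were counted separately in these lists, and many of the oocyte models were of ZP3. The oocyte markers GDF9 (g5262) and BMP15 (g4183) had close means in both groups (log2 0.03 and -0.09). Of the 4 endothelium models, which match cadherin-5 or VEGF receptor 2, 3 were lower in responders and 1 higher. Of the 5 leukocyte models, 3 were higher in responders and 2 lower. The adipocyte sums were mostly FABP4 (g3192), at 18197 scaled counts among non-responders and 17646 in responders (log2 -0.04), while the other 2 models were higher. Of the 7 erythrocyte models 6 were lower in responders. The 1 higher was a hemoglobin beta model of 144 bases (hbbc, g34146), at 41.9 and 413 scaled counts. Beside the higher calpain-2 models, the median ratio was thus lower for oocyte and endothelium markers. It was higher for theca and stroma, leukocyte and adipocyte markers, although the adipocyte sum was lower in responders. The part of these shifts in the calpain differences was not tested.

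Skeletal muscle and gut markers were read beside the muscle and gut forms. Of 17 skeletal muscle models, 3 had a mean of at least 5, summing to 49.6 scaled counts among non-responders and 61.6 in responders (median log2 0.51), and 3 were at 0 in both groups. Both villin models of the digestive epithelium were at 1.09 scaled counts among non-responders and under 1 among responders, per the authors' deposited table. The intestinal fatty acid-binding protein (fabpi, g17208) was high in both groups, with 2086 and 3580 scaled counts (log2 0.78) in the authors' deposited table.

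**Figure D4:**
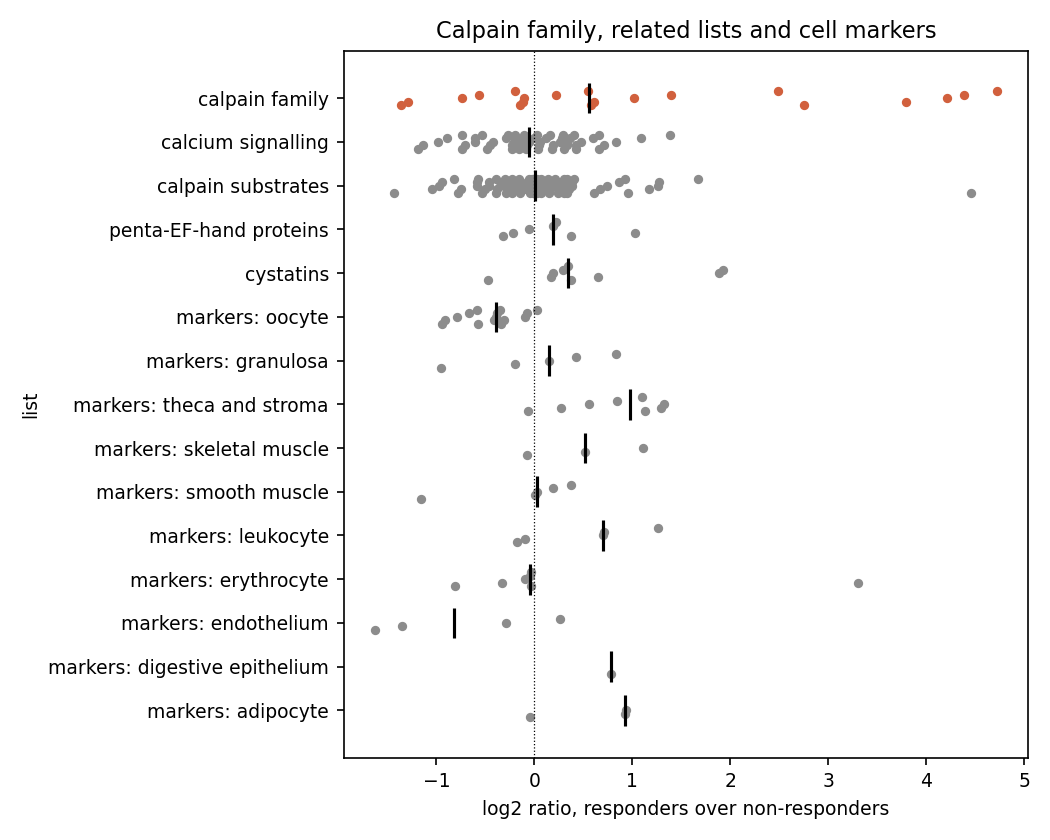
Log2 ratios of responder to non-responder means for the models averaging at least 5 in the calpain family (orange) and in the related lists and cell marker lists (grey); each point is a gene model and the black bar is the median of the list. The calpain family ranges from -1.36 to 4.72 (median 0.56, quartiles -0.16 and 2.55). The substrate list ranges from -1.43 to 4.46 (median 0.01) but has closer quartiles, -0.28 and 0.29. Its top value is the spectrin model g4489, with 1.02 scaled counts among non-responders and 22.3 in responders. Calcium signalling ranges from -1.19 to 1.38 (median -0.05).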

How the data were processed

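Ovarian mRNA libraries of 4 responder and 2 non-responder eels were grouped by their phenotype label. The authors deposited 1 comparison table, credited to DESeq by its name; the version, the alignment, the counting and the assembly behind it were not given in the sources used here. Per the file headers it holds base means, a signal of counts divided by size factors, for all libraries and for conditions A and B, the fold ratio of B to A, and a p-value with its adjusted form. The authors deposited as well the length of the longest transcript of each model, used here as its length, and a similarity fraction to the best protein match. The overall mean equals the means of A and B weighted 2 to 4 in each row (largest deviation 3.5e-10), so A was read as non-responders and B as responders. Another 6 columns hold single libraries under names found in no label and were left unused, so depth per library, leave-one-out fits and count tests were not analysed here. A row that holds no values (1) was left out. The members and lists were chosen with earlier results of these data known; some list patterns were respelled to match the deposited descriptions once these could be read. Log2 of the deposited fold, levels per 1000 bases of model, sums and medians were computed with Python 3.11.15, pandas 2.3.3 and numpy 2.4.6; calls are models with a deposited adjusted p under 0.05, and medians used models with a mean of at least 5. Group values are given for each called member and each member with a mean of at least 50, with scarcer ones added where a kind is described. They are also given for the 2 models with the smallest p of each of the 4 related lists among means of at least 50. More abundant models of the same name were added for talin-2, ALG-2, cystatin-F and cystatin-B, along with the spectrin model of the widest substrate ratio. Marker lists are given by sums and medians, with a few single models added. The Benjamini-Hochberg re-adjustment was checked on simulated p-values. Alternatives were other filters, a pseudocount, other scalings and another threshold.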

Additional observations from a re-analysis of the deposited data

How the results depend on the processing

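The count of 3 called calpain models was 3 with p re-adjusted over models averaging 20 or more, over all models with a p, and at a threshold of 0.10. The first of these filters admits the 3 only through their responder means and the second nearly repeats the deposited adjustment (largest deviation 5.4e-05), so neither is a check of the count. The family median log2 of 0.56 was 0.35 without a filter, -0.10 over those averaging 50 or more, 0.52 with a pseudocount of 1, 0.67 with both groups rescaled to equal sums (a shift of 0.11 for every model) and 0.55 when centred on all models; it was -0.10 with calpain-2 counted once, an alternative chosen after seeing the data. All 20 descriptions named the protein itself. The family share over members with a mean of at least 5 was 0.0326% in non-responders and 0.0341% in responders. Without a filter the list medians were -0.10 (calcium signalling), 0.017 (substrates), 0.066 (penta-EF-hand proteins) and 0.34 (cystatins, all above the filter); with equal sums they were 0.058, 0.12, 0.30 and 0.45. The sign of the median held in 9 of 10 marker lists with equal sums and in 8 of 10 without a filter. Where a median moved, the cause was not tested. No paired analysis was possible because the labels pair no eels. Leaving out single eels was not run because the columns of single libraries could not be tied to a label. Low means limit the ratios of the short calpain-2 models. The called g30496 and g28294 rest on non-responder means of 1.96 and 2.90 scaled counts, g41142 on 0.47 and g12881 on 5.16.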
